A study of Mus musculus with 60 samples.

Results

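Gpc3, Ccdc160, Phf6, Hprt, Fam122b and Gm364 are 6 genes of the mouse X chromosome whose exons lie between 52 and 58 Mb (mm10), on the centromeric side of Xist. They are 6 of 34 X-linked genes listed in that interval in any of 60 libraries, of 490 X-linked and 14383 genes listed in all. They were chosen by their transgene-allele share and levels with and without doxycycline in clones with the transgene on the X, as a stretch with a deep loss, and this loss is therefore given as a description without a test. The RNA-seq data come from F1 2-1 female embryonic stem cells (ESCs), hybrids of 129/Sv and Cast/Ei mice, so that reads covering a strain difference tell the alleles apart. All clones carry the M2rtTA transactivator at ROSA26 and a BAC transgene of Cast/Ei origin from which doxycycline induces Xist. Each clone is a single selected line.

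In Tg-E clones 87 and 68 the transgene was targeted to the Xist locus of the Cast X in a line of normal karyotype. In Tg-X clones 109, 86, 190 and 85 it sits on the Cast X, and in clones 203b, 267 and 339, called Tg-X;8, on the 129 X;8 translocation product, all in the t(X;8) line with an extra copy of distal Cast chromosome 8. By the study, this line is also partly monosomic for X-linked genes. Clone 267 has in addition a Tsix-Stop allele on its 129 X. In Tg-12 clones 228, 273 and 38 (a line of clone 55), derived from a line trisomic for chromosome 12 (dup12), the transgene sits on chromosome 12 and the X carries none. ESCs were grown with 2i and LIF, untreated or with 2 µg/ml doxycycline for 5 days, and neurons of lines 20 and 38 were collected at day 14, with and without doxycycline. Both lines are taken as lines of clone 55, which the labels do not name. Only a part of induced cells had a Xist-coated chromosome in the study's RNA FISH, so that each treated library is a mixture. Allele-specific reads per library numbered 731374 to 5830149 in ESCs (n = 48) and 7068712 to 10698003 in neurons (n = 4). Xist was listed in every treated library of assigned clones.

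Xist RNA coats the chromosome it is transcribed from and silences genes in cis, which in female cells evens out the dosage of X-linked genes. Hprt encodes hypoxanthine phosphoribosyltransferase, the enzyme of purine salvage that is widely used as a selectable marker, and Gpc3 encodes glypican 3, a heparan sulfate proteoglycan of the cell surface that restrains growth signals. Phf6 encodes a nuclear PHD finger protein, and Ccdc160 a protein with a coiled-coil domain. Fam122b and Gm364 are named after a protein family and a gene model.

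The genes span a stretch at 50.2 to 50.8 Mb from Xist, with Gm364 set apart at 46 Mb. From the centromere on, they are Gpc3 (chrX:52272426-52613974, minus strand), Ccdc160 (chrX:52791200-52799474, plus strand), Phf6 (chrX:52912214-52956961, plus strand), Hprt (chrX:52988078-53021660, plus strand), Fam122b (chrX:53243415-53269850, minus strand) and Gm364 (chrX:57400767-57488773, plus strand). The allele-specific reads of Hprt all fall in its last exon (chrX:53021067-53021660), of which 48 of 594 bases are coding and the rest are 3′ UTR. Those of Ccdc160 also lie within a single exon (chrX:52798059-52799468), 972 of whose 1410 listed bases are coding. For Gpc3, Phf6, Fam122b and Gm364 the listed polymorphisms span several coding exons, and the span varied between libraries (2 versions for Gpc3, Phf6 and Fam122b, 4 for Gm364).

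Since the 6 genes were grouped for losing expression together, the starts of 3 of them are shown, namely those with the deepest loss (Gm364 and Gpc3) and the one with the most reads (Hprt). Each sequence runs from 250 bases before to 50 bases after the start given for the gene in RefSeq's promoter windows (GRCm38.p6), is printed on the gene's own strand, and has the GC box GGGCGG or its reverse complement CCGCCC in capitals. The windows are chrX:57408899-57409198 for Gm364, chrX:52613925-52614224 for Gpc3 and chrX:52987828-52988127 for Hprt. The window of Gm364 lies inside the annotated span of the gene and not at its outer end.
Gm364: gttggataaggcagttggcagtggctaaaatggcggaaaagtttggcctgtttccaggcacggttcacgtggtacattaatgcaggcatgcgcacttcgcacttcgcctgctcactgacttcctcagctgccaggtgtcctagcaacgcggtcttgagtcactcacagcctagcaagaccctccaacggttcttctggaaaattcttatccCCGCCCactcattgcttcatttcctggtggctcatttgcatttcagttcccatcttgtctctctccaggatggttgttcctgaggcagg
Gpc3: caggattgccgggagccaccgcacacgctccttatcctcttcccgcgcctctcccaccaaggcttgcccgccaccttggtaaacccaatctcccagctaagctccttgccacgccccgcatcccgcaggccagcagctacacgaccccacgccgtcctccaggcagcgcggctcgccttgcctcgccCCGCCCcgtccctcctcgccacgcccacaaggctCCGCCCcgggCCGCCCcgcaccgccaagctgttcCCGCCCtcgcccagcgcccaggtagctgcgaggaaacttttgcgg
Hprt: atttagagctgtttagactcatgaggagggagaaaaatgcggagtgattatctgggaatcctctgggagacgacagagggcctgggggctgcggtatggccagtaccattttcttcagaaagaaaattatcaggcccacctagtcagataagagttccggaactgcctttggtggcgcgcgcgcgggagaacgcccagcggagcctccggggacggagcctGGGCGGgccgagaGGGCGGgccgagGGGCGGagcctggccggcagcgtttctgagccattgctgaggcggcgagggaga
The GC box occurred 4 times in the window of Gpc3, 3 times in that of Hprt and 1 time each in those of Gm364, Ccdc160 and Fam122b, whereas 35.7% of 32851 promoter windows of the same length and 33.9% of 1223 X-linked ones held it. CG dinucleotides numbered 30 in Gpc3, 22 in Hprt, 19 in Fam122b, 14 in Ccdc160 and 10 in Gm364, against a median of 7 over all windows. Phf6 had no entry among the windows used. A match is a run of letters and not a bound site.

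In untreated ESCs all 6 genes were transcribed from both alleles at unequal levels. Per kilobase of exon, Hprt had a median of 222 CPM, the count of a gene scaled to the library sum (range 115 to 326, n = 24 libraries), Gpc3 24.5 (11.3 to 61.5, n = 22), Gm364 21.5 (11.3 to 41.3, n = 24), Fam122b 16.9 (6.03 to 27.3, n = 24), Phf6 11.8 (8.03 to 17.0, n = 22) and Ccdc160 8.92 (2.53 to 12.5, n = 17). Hprt thus lay above the other 5 without overlap, while the ranges of the 5 overlapped with each other. Total CPM are used below without division by length, because each gene is then compared with itself.

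The first question was how far the transgene allele of these genes was lost upon Xist induction from the X. The measure is the transgene-allele share, the fraction of allele-specific reads from the X that carries the transgene, and the Δ share, its untreated minus its treated mean within a clone. With a Δ share between 0.1 and 0.5 as the study's limit for an affected gene, 42.7% of 253 X-linked genes and 1.51% of 7987 autosomal genes were past it on average over clones, counting genes with a Δ share in at least 4 clones. All 6 genes were past it as well, which follows from how they were chosen, at mean Δ shares between 0.131 and 0.308. The median over these X-linked genes was 0.0870 and over these autosomal genes -0.000751. The X-linked genes from Maged2, 47.3 Mb distal to Xist, to Mid1 all had mean Δ shares under 0.1. Ubqln2 among them ranged from 0 to 0.190 over clones (mean 0.0238) and Sat1 from 0 to 0.241 (mean 0.0307). A gene with a single X copy cannot shift its share, and which genes are single-copy in the t(X;8) line was not tested. The X-linked percentages and median of Δ share, here and by clone below, include these distal genes. Since none of the distal genes was past the limit on average, they lower the 42.7% and the median of 0.0870. Listing itself dropped with treatment, since a gene is listed only with at least 8 allele-specific reads. Of 16 untreated and 16 treated libraries of X-transgene clones, Hprt was listed in 16 and 16, Fam122b in 16 and 15, Phf6 in 16 and 12, Gm364 in 16 and 11, Ccdc160 in 15 and 9, and Gpc3 in 15 and 8. Treated values of the last 4 genes therefore cover the libraries in which they stayed above that minimum.

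Gm364 had the largest mean Δ share of the 253 X-linked genes with a Δ share in at least 4 clones, 0.308 ± 0.112 (SD, n = 7 clones). Its transgene-allele share lay between 0.325 and 0.585 in untreated libraries (median 0.472) and between 0 and 0.455 in treated ones (median 0.142). All treated values of Tg-E and Tg-X clones lay below the untreated ones. The Tg-E clones 87 and 68 had 0.0909 and 0.142. Among Tg-X clones, 190 had 0.0435, 85 had 0.0714 and 0.125, and 86 had 0. The last value rests on 13 reads, of which none was from the transgene allele, which allows a share of up to 0.231. Tg-X;8 clones kept more of Gm364, with treated shares of 0.184 and 0.245 in clone 267, of 0.250 and 0.267 in clone 339, and of 0.455 in clone 203b, the last from 11 reads (95% Wilson interval 0.213 to 0.720).

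Gpc3 had rank 3, with a mean Δ share of 0.302 ± 0.209 (SD, n = 5 clones), and had the largest SD among clones. In clone 87 its share was 0.667 and 0.674 without and 0.160 and 0.286 with doxycycline. In clone 109 it went from 0.594 and 0.632 to 0.0370 in the only treated library that listed it (1 of 27 reads, Wilson interval 0.00657 to 0.183), a Δ share of 0.576 that exceeded the upper limit of 0.5. By contrast, clone 190 kept a share of 0.389 (18 reads, Wilson interval 0.203 to 0.614), and in clone 339 the treated libraries differed from each other, at 0.5 and 0.195. These intervals, like all others given here, cover counting error only.

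Fam122b lost a mean share of 0.243 ± 0.0739 (SD, n = 7 clones), the smallest spread among clones relative to its mean. Its untreated libraries lay between 0.348 and 0.656 (median 0.491) and its treated ones between 0.118 and 0.5 (median 0.203). The 2 ranges overlapped through clone 339 alone, whose treated libraries had shares of 0.351 and 0.5. Ccdc160, the gene with the fewest reads, had a mean Δ share of 0.224 ± 0.200 (SD, n = 4 clones). It fell from 0.64 and 0.6 to 0.286 and 0.154 in clone 190, and had no read of the transgene allele among 15 in treated clone 68, which allows a share of up to 0.200. In clone 267 the untreated share of Ccdc160 was 0.200 already, and its Δ share was -0.0364.

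Phf6 had a mean Δ share of 0.171 ± 0.128 (SD, n = 7 clones). Untreated libraries spread from 0.111 to 0.722 (median 0.519) and treated ones from 0.120 to 0.465 (median 0.309), so that both sets overlapped widely. The loss of Phf6 was 0.394 in clone 87 and 0.0338 in clone 267, in which the untreated share was 0.333 and 0.111. Hprt lost the least, 0.131 ± 0.0733 (SD, n = 8 clones), at the highest depth, with 131 to 851 reads in each treated library. Its share was 0.441 and 0.450 in untreated clone 87 and 0.174 and 0.233 in the treated one. In clone 85 it went from 0.421 and 0.467 to 0.239 and 0.270. In clone 86 the treated shares of Hprt, 0.379 and 0.356, were close to the untreated ones of 0.406 and 0.447. Of the 6 genes, those just inside and just outside the lower limit of 0.1 by clone were Gpc3 in clone 190 (0.102) and Gm364 in clone 203b (0.102) on the inner side, and Hprt in clone 267 (0.0947) on the outer side.

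**Figure D1:**
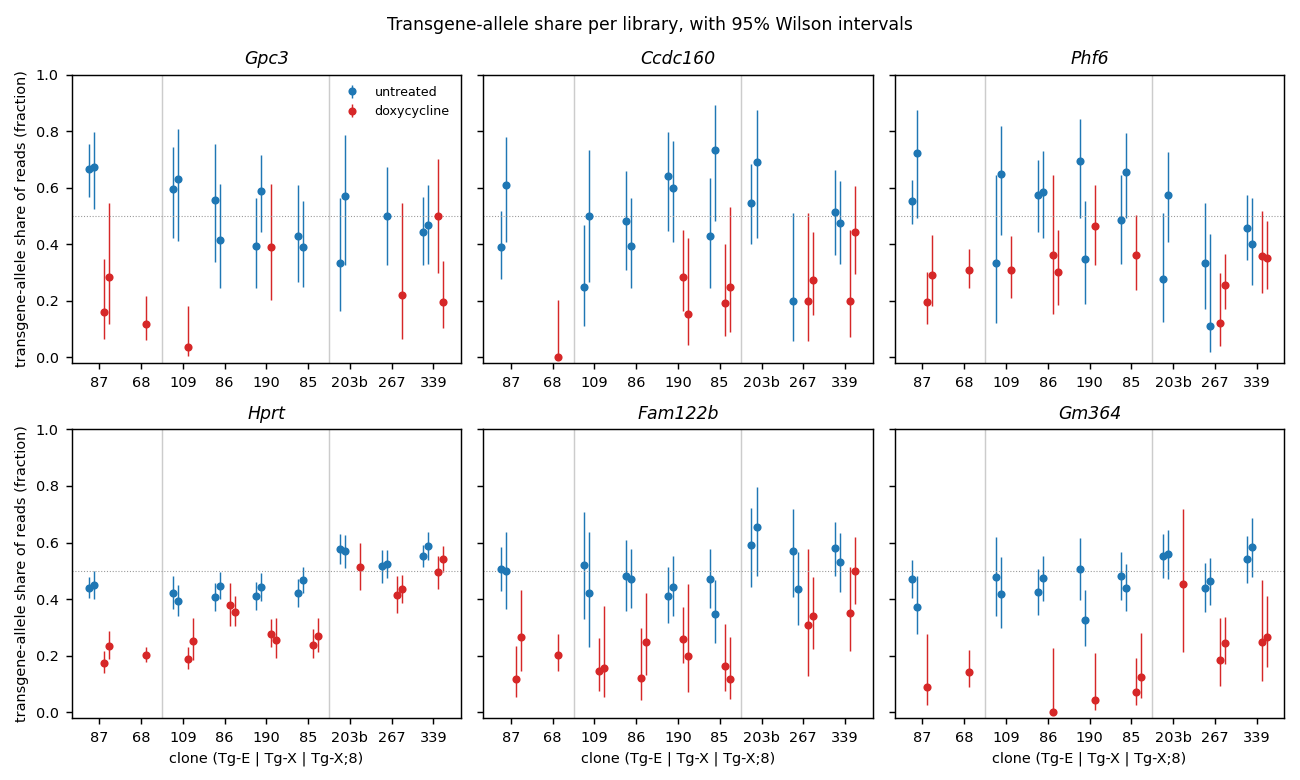
Transgene-allele share (fraction of allele-specific reads, vertical axis) of each gene in each library of the 9 X-transgene clones (horizontal axis), with 95% Wilson intervals as bars. Untreated libraries are blue and doxycycline-treated ones red, and libraries that did not list the gene are missing. Treated shares of Gm364 in Tg-E and Tg-X clones lie between 0 and 0.142, below all untreated ones, whereas those of Hprt reach 0.542 in clone 339.

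The depth of the loss differed by category of clones. Mean Δ shares in Tg-X clones were 0.394 for Gm364, 0.380 for Ccdc160, 0.339 for Gpc3, 0.270 for Fam122b, 0.174 for Phf6 and 0.149 for Hprt. In Tg-X;8 clones they were 0.214, 0.0677, 0.192, 0.154, 0.0537 and 0.0688 in the same order. Without clone 267, which carries the Tsix-Stop allele, the mean of Ccdc160 was 0.172 and that of Gpc3 0.107, and those of Gm364, Fam122b, Phf6 and Hprt were 0.204, 0.129, 0.0736 and 0.0559, an alternative added after the data were seen. Those of Gm364 and Hprt then rest on 2 clones and the others on clone 339 alone. The part of the Tsix-Stop allele in these means was not tested. All 6 genes had the larger mean in Tg-X clones, with or without clone 267, although several of these means rest on 2 clones (Gpc3 and Ccdc160 in both categories, Fam122b and Phf6 in Tg-X;8). The allele that carries the transgene differs between these categories, and its part cannot be told apart from that of the transgene site. By clone, the genes with a Δ share between the limits were 5 of 5 in clone 87, where 72.2% of all X-linked genes with a Δ share were, and 5 of 5 in clone 85 (55.9%). They were 5 of 6 in clone 190 (35.7%) and 3 of 4 in clone 86 (27.8%). In clone 109 they were 3 of 4 (60.6%), with Gpc3 over the upper limit at 0.576. Among Tg-X;8 clones they were 4 of 6 in clone 339 (32.4%), 3 of 6 in clone 267 (28%) and 1 of 2 in clone 203b (39.5%). Since the genes were chosen on this contrast, nothing is read from these counts. Clone 68 had no untreated library and gave no Δ share.

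The 6 genes were not the only ones of the interval. Of the other 28 genes listed between 52 and 58 Mb, 9 had a Δ share in at least 4 clones, with a median of 0.152 and 7 past the limit. They ranged from 0.0638 for Htatsf1, a factor of transcript elongation and splicing, and 0.0815 for Mmgt1 to 0.288 for 6330419J24Rik. Gpc4, the glypican gene next to Gpc3, had a mean Δ share of 0.129 ± 0.126 (SD, n = 8 clones), against 0.302 for Gpc3 itself. The remaining values were 0.122 for Ddx26b, 0.152 for Rbmx, which encodes an RNA-binding protein, 0.161 for Mospd1, 0.184 for Fhl1, a LIM domain gene, and 0.279 for 4930502E18Rik. With fewer than 4 clones, 1700013H16Rik had 0.164 (n = 3), and Zfp449 and Mtap7d3 had 0.250 and 0.395 in 1 clone each. A further 13 genes of the interval were listed in no ESC library, namely Kis2, Mir351, C430049B03Rik, Plac1, Cxx1c, Cxx1a, AW822252, Zfp36l3, 3830403N18Rik, 1600025M17Rik, Gm648, Vgll1 and Arhgef6, and Cxx1b and Xlr gave no Δ share. Outside the interval, Usp26 and 1700080O16Rik on the centromeric side gave none either. On the other side, Fgf13 had 0.345 ± 0.0859 (SD, n = 3).

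The 3 X-linked genes outside the interval whose Δ shares over 8 clones were most like the mean of the 6 genes were Msn, Fmr1nb and 1110012L19Rik. Their root-mean-square differences were 0.0587, 0.0604 and 0.0633 among 144 candidates, and the mean of the 6 genes was 0.221 ± 0.0956 (SD, n = 8 clones). Candidates had to be listed in every library of these clones, which of the 6 genes only Hprt was. Thinly read genes with a large Δ share were thus not compared. In clone 203b the mean rests on 2 of the 6 genes, and in clones 109 and 86 on 4. Msn encodes moesin, a linker of membrane and actin, and Fmr1nb is a neighbour of Fmr1. All these values come from the same libraries and share their depth.

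**Figure D2:**
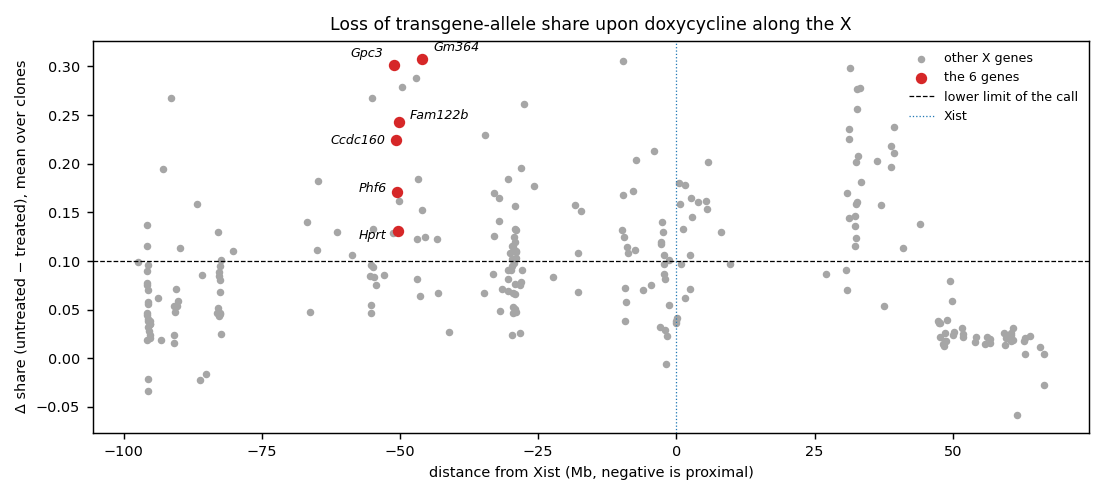
Mean Δ share over X-transgene clones (vertical axis) of 253 X-linked genes against their distance from Xist (Mb, horizontal axis), with the 6 genes in red and the lower limit of 0.1 dashed. The 6 genes lie 46 to 50.8 Mb proximal to Xist, from Hprt at 0.131 to Gm364 at 0.308.

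The second question was whether the total level, counted over all reads of a gene, fell together with the share. This level is known only in libraries that list the gene by its allele-specific reads. Treated levels of all genes but Hprt therefore leave out libraries in which the gene was under that minimum. Within these limits the total level fell unequally. Gm364 was left with 28.3 ± 9.95% of its untreated level (SD, n = 7 clones) and Gpc3 with 34.6 ± 9.23% (n = 5). Hprt and Fam122b kept 59.1 ± 12.5% (n = 8) and 60.3 ± 15.7% (n = 7), and Ccdc160 and Phf6 79.1 ± 7.34% (n = 4) and 82.2 ± 11.1% (n = 7). The median X-linked gene kept 85.1% and the median autosomal gene 104%, over 220 and 7903 genes. These are genes with untreated reads of both alleles in at least 4 clones, unlike the 253 X-linked genes with a Δ share. These values stem from the contrast by which the genes were chosen and carry no test.

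Total Hprt ranged from 253 to 416 CPM (median 299.7) in the 16 untreated libraries of X-transgene clones and from 130 to 251 CPM (median 171) in the 16 treated ones. Thus, every treated library lay below every untreated one, which was the case for 4.67% of the X-linked genes and 0% of the autosomal genes listed in all 32 libraries. Gm364 went from 34.5 to 89.4 CPM (median 61.7) to 12.3 to 35.4 CPM (median 16.4), and Gpc3 from 25.6 to 78.1 CPM (median 54.8) to 13.2 to 33.5 CPM (median 20.0), so that both overlapped slightly. Fam122b went from 40.4 to 118 CPM (median 73.8) to 35.2 to 59.9 CPM (median 42.2). Phf6 had medians of 52.1 and 43.5 CPM and Ccdc160 of 14.2 and 10.9 CPM, with overlapping ranges.

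Multiplying the total level by the share of each allele separates the transgene allele from the other one. The transgene allele of Gm364 kept 9.48 ± 8.05% of its untreated level, that of Gpc3 17.4 ± 13.9%, of Fam122b 28.2 ± 9.15%, of Hprt 42.6 ± 16.4%, of Ccdc160 49.3 ± 23.5% and of Phf6 55.8 ± 16.4% (SD over the same clones). The median over 220 X-linked genes was 67.6%. The allele without a transgene was lower in some genes as well. It kept 44.9 ± 16.4% for Gm364 (range 20.5 to 71.1%), 58.9 ± 16.2% for Gpc3 (35.7 to 75.1%) and 73.2 ± 16.1% for Hprt (59.2 to 103%), whereas the median X-linked gene had 103% there. For Fam122b, Phf6 and Ccdc160 it was 89.3 ± 30.4%, 115 ± 35.1% and 126 ± 50.2%. Gm364 and Gpc3 were below 100% on this allele in every clone with a value, 7 and 5 of them. In bulk RNA, fewer cells that express a gene and less RNA per cell cannot be told apart.

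**Figure D3:**
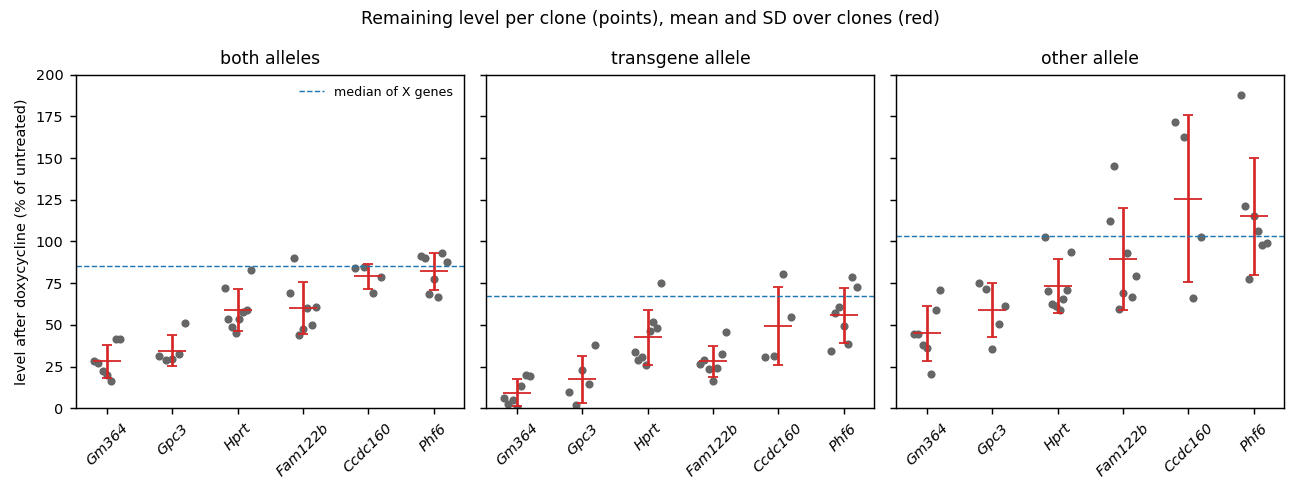
Level after doxycycline as a percentage of the untreated level (vertical axis) for both alleles together, the transgene allele and the other allele. Grey points are clones, red marks give the mean and SD over clones, and the dashed line is the median of X-linked genes (85.1%, 67.6% and 103%). The means of Gm364 (28.3%, 9.48% and 44.9%) and Gpc3 (34.6%, 17.4% and 58.9%) lie below that line on all 3 scales.

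In Tg-12 clones, Xist is induced from chromosome 12, so that the same treatment can be compared where no X carries the transgene. Here the alleles of these genes did not shift detectably. Gpc3, Hprt, Fam122b and Gm364 were listed in all 12 libraries and none of them was called (edgeR quasi-likelihood test, adjusted p between 0.952 and 1). None of the 4 had an unadjusted p under 0.05 and none was called by DESeq2. Of all 5167 genes, edgeR called 0.0774% and DESeq2 called 1. The fitted change of the Cast to 129 ratio was 0.02 ± 0.11 (log2, SE) for Hprt, with a 95% interval from -0.20 to 0.24. For Gm364 the change was -0.25 ± 0.20 (interval -0.66 to 0.16), for Gpc3 0.08 ± 0.28 (-0.49 to 0.65) and for Fam122b 0.01 ± 0.27 (-0.55 to 0.57). The direction of the last 2 and of Hprt depended on single libraries. Phf6, fitted over the 10 libraries that list it, had -0.31 ± 0.30 with an edgeR adjusted p of 0.927. Ccdc160 was listed in 5 of the 12 libraries and was not tested.

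The total level in the same clones gave a different picture for Gpc3. It was 124 and 140 CPM in untreated and 78.4 and 73.8 CPM in treated clone 228, and 72.5 and 63.8 against 44.9 and 36.6 CPM in clone 273. In clone 38 the values were 40.2 and 45.1 CPM without and 39.5 and 39.7 CPM with doxycycline. All treated libraries lay below the untreated ones of their clone, and the fitted change of -0.58 ± 0.12 (log2, SE) had an edgeR adjusted p of 0.122, while 0.116% of all genes were called (0.0968% higher and 0.0194% lower). With DESeq2 the adjusted p was 0.00123, where 105 genes were called against 6 by edgeR. With a single library left out, the edgeR adjusted p lay between 0.0139 and 0.387 over 12 fits. Gpc3 was called by edgeR without untreated replicate 1 of clone 38 (0.0139, with 58 genes called) and without untreated replicate 2 (0.0197, with 160). Leaving out any other single library gave no call of Gpc3. Over the 10 libraries that list Phf6, the edgeR adjusted p of Gpc3 was 0.0316, with 119 genes called. Hprt had a change of -0.34 ± 0.12 (edgeR adjusted p = 0.338, unadjusted 0.0121), from 195.7 and 256 to 179 and 184 CPM in clone 38. Phf6 had -0.26 ± 0.09 (adjusted p = 0.150, edgeR, over the libraries that list it), Fam122b -0.17 ± 0.11 (0.762) and Gm364 0.06 ± 0.13 (0.944). In these fits none of 17 measured genes of purine metabolism, Hprt among them, and none of 3 of glypicans and heparan sulfate passed the edgeR or DESeq2 test (3 and 1 at an unadjusted p under 0.05), their median changes being -0.11 and 0.26.

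**Figure D4:**
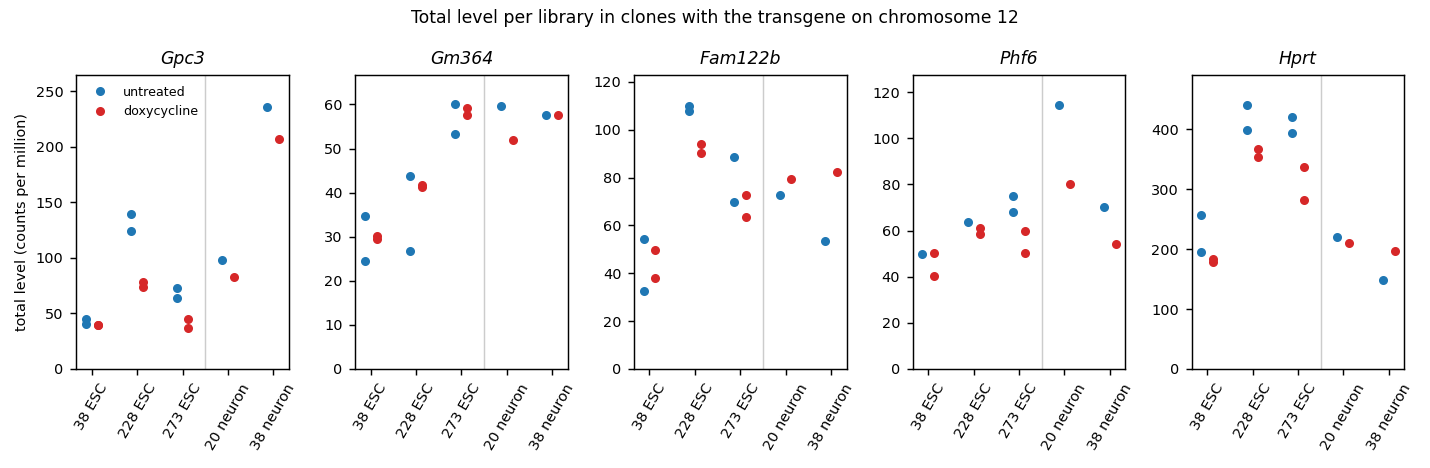
Total level (CPM, vertical axis) of 5 of the genes in each library of Tg-12 ESC clones 38, 228 and 273 and of neurons of lines 20 and 38 of clone 55, untreated in blue and treated in red. Gpc3 lies between 98.5 and 235 CPM in untreated neurons and between 36.6 and 45.1 CPM in ESCs of clone 38 and treated clone 273. In untreated ESCs of clone 228 it lies at 124 and 140 CPM.

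Neurons of clone 55 were set against ESCs of its line 38 to see whether these genes vary with the cell type where the X carries no transgene. The libraries labelled as neurons kept pluripotency markers, whose sum over 10 genes was 1865 to 3677 CPM against 7420 to 12911 CPM in ESCs, with Pou5f1 listed in all 4. Of 10 neuronal markers 9 were listed in neurons, with Stmn2 missing, and their sum was 132 to 1038 CPM against 82.7 to 231 CPM in ESCs. Untreated neurons of line 38 had the highest sums of neuronal (1038 CPM), glial and progenitor (1744 CPM) and mesenchymal markers (383 CPM) of the 4 libraries. Treated neurons had neuronal sums of 221 CPM (line 20) and 132 CPM (line 38), both within the ESC range. Treated and untreated neurons were therefore unlike mixtures. Xist, which was listed in 1 of 6 untreated Tg-12 ESC libraries, at 5.81 RPM (allele-specific reads scaled to their library sum), had 728 and 1251 RPM in untreated neurons. The part of these mixtures and of Xist in the values below was not tested.

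Total Gpc3 was higher in neurons than in ESCs of line 38, though untreated ESCs of clone 228 had 124 and 140 CPM. It was 98.5 CPM in untreated neurons of line 20 and 235 CPM in those of line 38, against 40.2 and 45.1 CPM in ESCs, a log2 change of 1.99 ± 0.52 (SE, edgeR adjusted p = 0.0358), where 15.3% of 6777 genes were called, 6.46% higher and 8.85% lower. Without untreated neurons of line 38 the change was 1.16 with an adjusted p of 0.225. The call was also lost without either untreated ESC library (0.0648 and 0.0972) or either treated one (0.0522 each), and was kept with DESeq2 (0.000596). Gm364 rose by 1.02 ± 0.22 (adjusted p = 0.0184), from 34.8 and 24.4 to 59.6 and 57.5 CPM. The neurons thus lay close together and above both ESC libraries of line 38, and DESeq2 gave 0.000687. Untreated ESCs of clone 273 had 60.1 and 53.4 CPM of Gm364. The edgeR adjusted p rose to 0.0862 without untreated neurons of line 38, to 0.0509 without those of line 20, to 0.0564 without untreated ESC replicate 2, and to 0.0527 and 0.0516 without the treated ESC replicates. Fam122b, at 54.2 and 32.5 CPM in ESCs and 72.9 and 53.3 CPM in neurons, had a change of 0.58 ± 0.26 (edgeR adjusted p = 0.149, and 0.0412 without untreated ESC replicate 1), Hprt of -0.31 ± 0.27 (0.444), and Phf6, over the libraries that list it, of 1.00 ± 0.37 (0.151, edgeR). Ccdc160 had 4.86 and 5.78 CPM in untreated neurons and 10.2 CPM in the only untreated ESC library that listed it.

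Of the 17 measured purine genes, Adk, the adenosine kinase, rose in neurons (1.56 ± 0.30, edgeR adjusted p = 0.0118) and the other 16 did not pass the test, while DESeq2 called 3 in all and 3 had an unadjusted p under 0.05. Aprt, the adenine counterpart of Hprt, had -1.27 ± 0.38 (adjusted p = 0.0524). Of 7 measured glypican and heparan sulfate genes, 2 rose and 1 fell by the edgeR test. Ext1 and Hs2st1, enzymes of heparan sulfate synthesis, rose by 1.11 ± 0.32 and 1.04 ± 0.24, and Notum, a secreted Wnt-inactivating hydrolase, fell by 2.64 ± 0.46 on the log2 scale. The medians of the 2 lists were 0.09 and 0.34, against -0.02 over all genes.

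The Cast share of Hprt was 0.349 and 0.382 in untreated neurons and 0.409 and 0.398 in untreated ESCs, and the change of its allelic ratio was -0.23 ± 0.21 (log2, SE, edgeR adjusted p = 0.711), with 1.4% of genes called, 0.694% higher and 0.708% lower. None of the other genes passed this test, and none of the 4 in this fit did so with DESeq2 or at an unadjusted p under 0.05. Fam122b had 0.77 ± 0.39 (adjusted p = 0.460), Gpc3 -0.36 ± 0.30 (0.677), Gm364 -0.05 ± 0.25 (0.973) and Phf6 -1.84 ± 0.59 (0.361, edgeR, unadjusted 0.0161, over the libraries that list it). The value of Phf6 rests on a single untreated ESC library with 33 reads and a Cast share of 0.788 (Wilson interval 0.622 to 0.893), while its neurons had 0.460 and 0.562.

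Upon doxycycline in neurons, none of the 5 fitted genes was called, nor any other gene, for the total level (0% of 6777 genes by edgeR, 110 of them at an unadjusted p under 0.05, and 1 by DESeq2). Gpc3 went from 98.5 to 82.8 CPM in line 20 and from 235 to 207 CPM in line 38, a change of -0.23 ± 0.49. Hprt went from 221 to 211 CPM and from 149 to 196 CPM, in opposite directions in the 2 lines. The changes of the allelic ratio were 0.20 ± 0.19 for Gpc3, 0.19 ± 0.19 for Hprt, 0.20 ± 0.19 for Gm364 and -0.16 ± 0.25 for Fam122b (edgeR adjusted p = 1.00 for each), with 0.0295% of genes called.

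**Figure D5:**
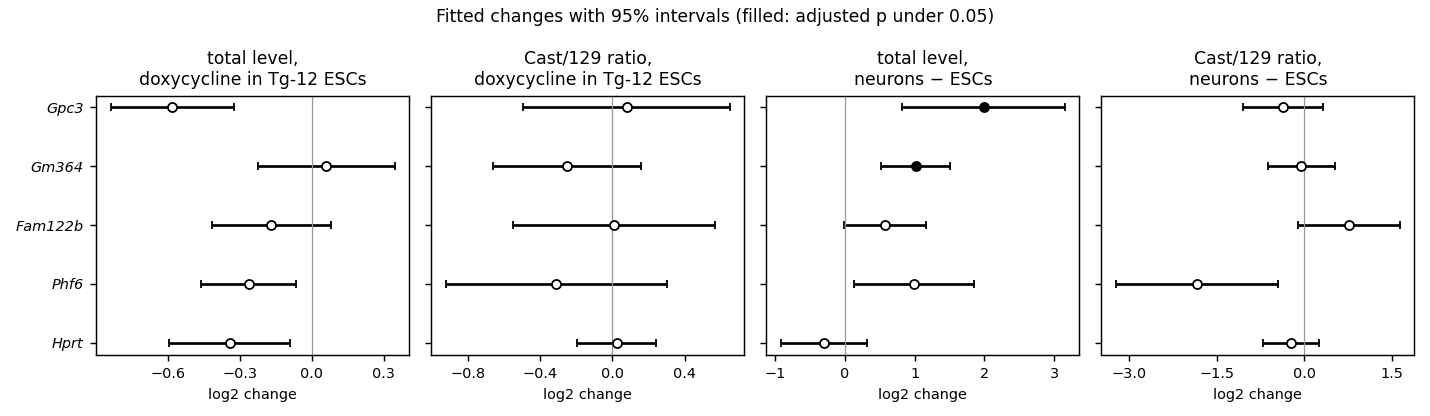
Fitted log2 changes (horizontal axis) of 5 genes with 95% intervals in 4 comparisons, doxycycline against none in Tg-12 ESCs and untreated neurons against ESCs, each for the total level and the Cast to 129 ratio. Filled points passed an adjusted p of 0.05, which were Gpc3 (1.99) and Gm364 (1.02) in the total level of neurons. Values of Phf6 come from the libraries that list it.

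Clone 267, with its Tsix-Stop allele on the 129 X, was compared before treatment with the 6 other t(X;8) clones. Its Cast to 129 ratio minus theirs was 0.61 ± 0.21 (log2, SE) for Gm364, 0.30 ± 0.14 for Hprt, 0.44 ± 0.32 for Fam122b and 1.12 ± 0.52 for Phf6. Their edgeR adjusted p-values lay between 0.966 and 1, and 0.0671% of 5958 genes were called (0.0504% higher and 0.0168% lower), so that none of these 4 differences passed the test. DESeq2 called none of the 4 either, and Gm364 (0.00971) and Hprt (0.0445) had an unadjusted p under 0.05. The X-linked genes of this fit had a median of 0.24. The comparison has 1 clone on one side and assumes that clone 267 varies like the others. With genes listed in at least 1 library of each clone, Ccdc160 had 2.04 ± 1.06 and Gpc3 -0.09 ± 0.58 (edgeR adjusted p = 1 for both).

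Finally, untreated t(X;8) clones without clone 267 were set against dup12 clones, since X-transgene and Tg-12 clones come from different lines. Gpc3 had a difference of -0.75 ± 0.34 (t(X;8) minus dup12, log2, SE, edgeR adjusted p = 0.286, n = 6 and 3 clones), and Hprt, Fam122b and Gm364 differed by -0.31 ± 0.19 (0.444), -0.07 ± 0.32 (0.942) and 0.38 ± 0.30 (0.563), with 1.44% of 5081 genes called (0.315% higher and 1.12% lower). None of the 4 passed the edgeR or DESeq2 test and Gpc3 had an unadjusted p of 0.0490, though Hprt did so without clone 38 (-0.55, adjusted p = 0.0350). Their allelic ratios differed by 0.03 ± 0.09 for Hprt, 0.04 ± 0.24 for Gpc3, 0.23 ± 0.19 for Fam122b and -0.15 ± 0.15 for Gm364 (edgeR adjusted p between 0.741 and 0.980), with 3.27% of genes called, 0.905% higher and 2.36% lower. DESeq2 called none of the 4, and no unadjusted p was under 0.05. Among purine genes, 2 of 17 were lower in t(X;8) clones, Prps2 by -1.26 ± 0.26 and Impdh1 by -0.58 ± 0.11 (edgeR adjusted p = 0.0401 and 0.0279). They encode enzymes that make the ribose phosphate donor and guanine nucleotides. Prps2 is X-linked and is one of the distal genes described above, 63.9 Mb from Xist, with a mean Δ share of 0.0229. Of 22 X-linked genes called in this fit, 21 were lower in t(X;8) clones. The t(X;8) line is partly monosomic for X-linked genes, and the part of copy number in the difference of Prps2 was not tested. None of 3 glypican and heparan sulfate genes passed the edgeR or DESeq2 test or had an unadjusted p under 0.05.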

How the data were processed

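For each library and gene the authors deposited 2 allele-specific read counts (Cast and 129, at exonic polymorphisms), their sum, the fraction of Cast reads, and the HTSeq count of all reads on the gene, none of them normalized. Per the labels, reads of a TruSeq library were aligned to mm10 with TopHat2 2.0.6 and counted with SAMtools and HTSeq 0.6.1. The authors required a minimum coverage per polymorphism before deposit, and polymorphisms under it drop out of both alleles, so that levels were taken from the HTSeq count and not from allele-specific reads. Allele-specific reads are summed over polymorphisms, and in 4.17% of listed values they exceeded the HTSeq count. A gene under 8 allele-specific reads is missing and not 0.

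The 52 libraries with a clone, cell type and treatment in their labels were grouped by these. Clone 160 is labelled with the transgene on the X but given as Tg-12 by the study, and was kept out of the fits. The 8 libraries labelled clone 292 were not assigned. The 6 genes and the gene lists were chosen with earlier results of these data known. Besides these 6, the genes named are all others listed between 52 and 58 Mb, the nearest 2 on either side, the 3 most alike in Δ share, and up to 4 examples of a purine list (22 genes) and a glypican and heparan sulfate list (14 genes), by size of change. Of the genes this rule names, 2 are not reported here.

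CPM are HTSeq counts over their library sum. Total levels were tested with edgeR 4.0.16 (TMM, quasi-likelihood) in R 4.3.3 and allelic ratios with 2 columns per library, a term per library and the tested term by allele, over genes listed in every library of a fit, with Benjamini-Hochberg adjustment over all of them. P-values measure the spread between libraries or clones, which may be technical. DESeq2 1.42.0, other filters and normalizations, and leaving out libraries or clones were alternatives. Replicate libraries differed beyond counting noise in all 25 pairs (chi-square per degree of freedom from 1.64). The models were tested on simulated data. Other steps ran in Python 3.11.15 (pandas 2.3.3, numpy 2.4.6, scipy 1.17.1) and figures in matplotlib 3.10.9.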

Additional observations from a re-analysis of the deposited data

How the results depend on the processing

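In X-transgene clones the median of the 6 genes' mean Δ shares (0.233) kept its direction under pooled reads, a minimum of 20 reads and pairing of same-numbered libraries (0.238 with this replicate block), and lay between 0.213 and 0.267 with single libraries left out. The median of the 6 genes' mean changes of total level (log2, treated over untreated) then lay between -0.796 and -0.757. Same-numbered libraries did not deviate together in every clone (r from -0.56 to 0.66 in total level over 11 clones), so that the numbers are not taken as pairs. With the replicate block, calls in Tg-12 clones went from 6 to 0 for total level, and a block by line gave 38 allelic calls in neurons against 2. DESeq2 called 1 and 105 genes in Tg-12 clones (allelic ratio and total level, against 4 and 6), 1730 against 1038 for neurons, 4 against 2 and 1 against 0 for treated neurons, and 290 against 73 for t(X;8) clones. Reads summed per clone gave 1 and 0 calls in Tg-12 clones, and adding clone 160 gave 1 and 10. Libraries as units gave 555 for t(X;8) clones. Adjustment over X genes alone gave 1 allelic call in neurons and 8 for clone 267. Over the libraries that list Phf6, an alternative chosen after seeing the data, calls were 8 and 119 in Tg-12 clones and 4 (allelic) and 557 in neurons. With a library or clone left out, calls ranged in Tg-12 clones from 1 to 10 and 0 to 160, in neurons from 4 to 132 and 255 to 2914, in treated neurons from 2 to 55 and 0 to 1, for clone 267 from 2 to 4 and for t(X;8) clones from 28 to 404. Signs turned, with no call on either side, for Fam122b with DESeq2 (-0.0154, allelic, Tg-12) and, over the libraries that list Phf6, for Hprt (-0.0209, allelic, Tg-12, and 0.0318, neurons) and Gm364 (-0.0844, total, Tg-12). They also turned with a library left out, where allelic changes in Tg-12 clones ranged from -0.13 to 0.20 for Gpc3, -0.0498 to 0.0907 for Hprt and -0.13 to 0.17 for Fam122b, and total changes of Gm364 from -0.0455 to 0.146. In neurons the ranges were -0.20 to 0.12 for Gm364 (allelic) and -0.596 to 0.0392 for Hprt, and upon treatment -1.05 to 0.59 for Gpc3 and -0.0833 to 0.394 for Hprt. Between t(X;8) and dup12 clones they were -0.10 to 0.18 for Gpc3 and -0.0219 to 0.0711 for Hprt (allelic) and -0.39 to 0.27 for Fam122b. The cause of these changes was not tested. Treated libraries with under 30 allele-specific reads, common for Gpc3, Gm364 and Ccdc160, limit what single shares can show.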

Other observations

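Clone 160 carries a Tsix-Stop allele on its 129 X, and its label and the study place its transgene on different chromosomes. In its untreated libraries the Cast share of Phf6 was 0.810 and 0.857, and that of Gpc3 was 0.913 from 23 reads in the library that listed it. Treated libraries gave 0.667 for Phf6 in 1 library and 0.542 and 0.583 for Gpc3. Hprt had 0.478 and 0.458 untreated and 0.462 and 0.467 treated, and Gm364 had 0.514 and 0.660 against 0.463 and 0.484. Ccdc160 was listed in no library of this clone.

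In the 8 libraries labelled clone 292, whose cell type could not be assigned, the Cast share of Hprt ranged from 0.378 to 0.475 (median 0.449) and that of Phf6 from 0.520 to 0.789 (median 0.659). Total Gpc3 ranged from 27.5 to 177 CPM (median 85.1), and total Hprt from 156 to 265 CPM (median 187).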
